A study of Mus musculus with 28 samples.

Results

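Transcripts of 8 enzymes that make glucose, take up fructose into metabolism or interconvert glucose, sorbitol and fructose were followed in bulk RNA-seq of whole mouse kidney. They were Pck1, Pck2, G6pc, Fbp1, Pcx, Khk, Sord and Akr1b3, chosen by gene symbol, and all 8 were among the 14845 genes of the deposited table. The series models severe diabetic kidney disease in male mice, with 28 libraries. The diseased animals were db/db mice, which carry a mutation of the leptin receptor and are obese and diabetic. They had undergone uninephrectomy (Unx), the removal of 1 kidney, and were sampled at an age of 26 weeks (12 libraries) or 35 weeks (5 libraries). The controls were intact db/m mice, with both kidneys, of 26 weeks (5 libraries) and 35 weeks (6 libraries). Every db/db mouse had the surgery and no db/m mouse did, so the difference between these groups holds both genotype and kidney loss, and the parts of each cannot be told apart. The labels do not say whether each library came from a separate animal, and p-values then measure only the spread between these libraries, which may be technical. Values are the authors' normalized read values, called normalized values here.

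The kidney and the liver are the organs that release newly made glucose into the blood, and in the kidney this takes place in the proximal tubule. Pyruvate carboxylase (Pcx) makes oxaloacetate from pyruvate, the phosphoenolpyruvate carboxykinases (Pck1 in the cytosol, Pck2 in mitochondria) turn it into phosphoenolpyruvate, fructose-1,6-bisphosphatase (Fbp1) acts further up the chain, and glucose-6-phosphatase (G6pc) frees the glucose. Proximal tubule also takes up fructose, which ketohexokinase (Khk) phosphorylates. In the polyol pathway, aldose reductase (Akr1b3, also called Akr1b1) reduces glucose to sorbitol, an osmolyte of the inner medulla, and sorbitol dehydrogenase (Sord) oxidizes sorbitol to fructose.

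Depth estimated from the smallest steps of the values was 21.8 to 30.8 M counts (M, mega) per library. The first principal component of all genes, with 40.3% of the variance, separated db/db Unx from db/m kidneys. On the second (9.17%), 3 of the 5 db/db Unx libraries at 35 weeks, replicates 3, 5 and 6, stood apart, and calls of the 8 enzymes and of named genes that end without them are given with and without them. Kidney markers were present in every library, with Lrp2 of proximal tubule at 604 or more, Umod of the thick limb at 751 or more and Aqp2 of principal cells at 251 or more. Lepr, the leptin receptor gene, had normalized values of 0.0710 to 1.68 and 0.0364 to 1.27 in db/db Unx kidneys at 26 and 35 weeks, against 0.247 to 0.703 and 0.799 to 4.70 in db/m kidneys at the same ages. A gene-level value does not show the splicing mutation, so this checks no label.

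Set against db/m kidneys, db/db Unx kidneys had more transcript of 4 of the 8 enzymes at 26 weeks (Pck1, Pck2, G6pc and Fbp1) and less of Akr1b3. Pcx, Khk and Sord did not pass the test at that age. At 35 weeks Pck1, Pck2 and Fbp1 were higher and Akr1b3 and Sord lower, while G6pc, Pcx and Khk did not pass. Calls are adjusted p-values below 0.05 in limma over 13495 genes, by which 34.9% of all genes were called at 26 weeks (17.2% higher, 17.7% lower) and 32.3% at 35 weeks (15.9% higher, 16.4% lower). The median log2 difference of the 8 enzymes was 0.19 at both ages, and that of all genes tested was 0.02 at 26 weeks and 0.01 at 35 weeks. The 2 groups did not overlap at 26 weeks for Pck1 and Fbp1 (higher) and Akr1b3 (lower), where 12.8% of all genes did not overlap (5.11% higher, 7.68% lower), and at 35 weeks for Pck2 and Fbp1 (higher) and Sord and Akr1b3 (lower), where 18.1% did not (7.84% higher, 10.3% lower).

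**Figure D1:**
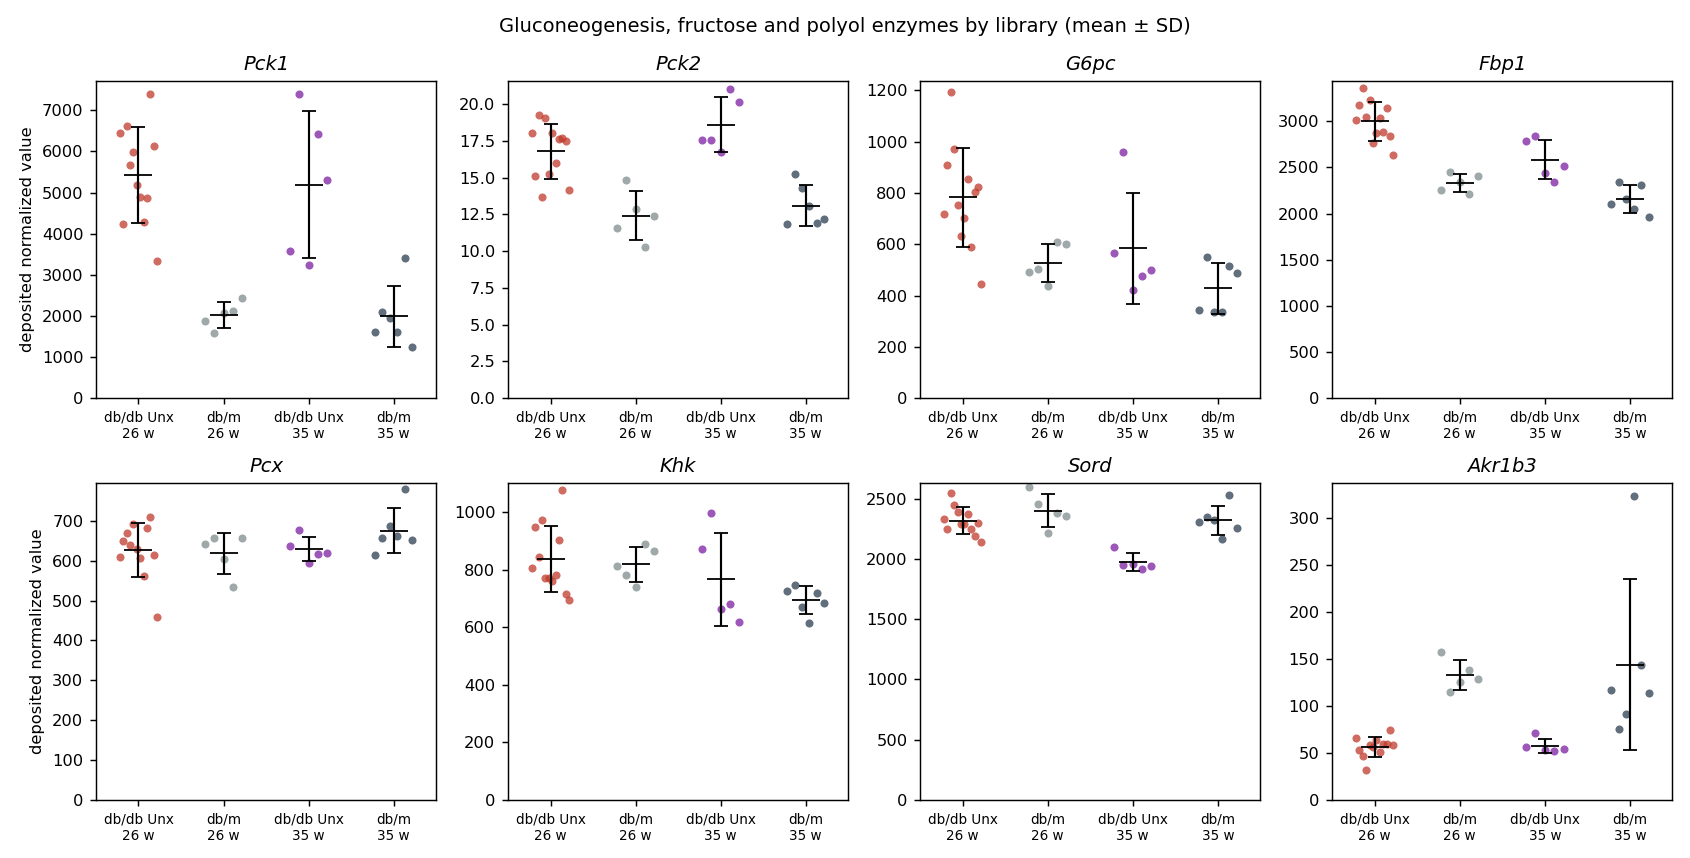
Normalized value of each enzyme (vertical axis, linear from 0) in each library (points) of the 4 groups, with the mean and SD as bars. Pck1 lies between 3333 and 7405 in the 12 db/db Unx libraries at 26 weeks and between 1584 and 2432 in the 5 db/m libraries, and Akr1b3 shows the opposite order, with 1 db/m library of 35 weeks at 322.

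Pck1 (ENSMUSG00000027513, GRCm38 chr2:173153048-173159273, plus strand) encodes the cytosolic carboxykinase, a rate-controlling step of gluconeogenesis. Its normalized value at 26 weeks ran from 3333 through a median of 5416 to 7405 in db/db Unx kidneys, and was 1877, 1584, 2079, 2124 and 2432 in db/m kidneys. The lowest db/db Unx kidney stood above the highest db/m kidney. The means were 5420 ± 1168 in db/db Unx and 2019 ± 314 in db/m (SD, n = 12 and 5), and Pck1 rose by a log2 difference of 1.41 ± 0.21 (SE; limma, adjusted p = 5.69e-06).

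At 35 weeks the Pck1 values were 3582, 7404, 3244, 6420 and 5303 in db/db Unx kidneys, against 1244 (lowest), 1782 (median) and 3397 (highest) in db/m kidneys. The groups overlapped by 1 library on each side: db/m replicate 5 stood above db/db Unx replicate 3. The log2 difference was 1.39 ± 0.24 (limma, adjusted p = 4.48e-05), and it was 1.45 (adjusted p = 0.00191) without the 3 libraries that stood apart. Among db/db Unx kidneys, the spread of Pck1 was wide, with a coefficient of variation of 21.5% at 26 weeks and 34.5% at 35 weeks, against 15.5% and 37.9% in db/m kidneys.

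Pck2 (ENSMUSG00000040618, chr14:55540266-55551242, plus strand), the mitochondrial carboxykinase, was scarce in all 4 groups. At 26 weeks its normalized value was 13.7 at the lowest, 17.5 at the median and 19.3 at the highest in db/db Unx kidneys, and 11.6, 14.8, 12.9, 10.3 and 12.4 in db/m kidneys. All but 2 of the db/db Unx kidneys lay above every db/m kidney. Pck2 rose by a log2 difference of 0.41 ± 0.09 (limma, adjusted p = 0.000701).

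At 35 weeks Pck2 had values of 17.6, 17.5, 16.7, 21.0 and 20.2 in db/db Unx kidneys and of 11.8 (lowest), 12.6 (median) and 15.3 (highest) in db/m kidneys, with no overlap. The log2 difference was 0.48 ± 0.11 (limma, adjusted p = 0.000599), and the call was lost without the 3 libraries that stood apart (0.40, adjusted p = 0.0556). In the annotation, 53 exon bases of Pck2 overlap Gm10876 on the opposite strand, and 1.69% of its 50-base stretches occur in other genes.

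The 2 carboxykinases did not rise by the same factor. The log2 ratio of Pck1 to Pck2 within a library was taken on values plus 1. Apart from that added 1, it does not depend on how libraries were scaled. It averaged 8.23 ± 0.26 in db/db Unx kidneys and 7.23 ± 0.36 in db/m kidneys at 26 weeks (SD, n = 12 and 5; difference 1.00, two-sided exact permutation test, adjusted p = 0.000646 over 4 ratio tests). At 35 weeks it averaged 7.98 ± 0.46 in db/db Unx and 7.07 ± 0.50 in db/m kidneys (n = 5 and 6, difference 0.91, exact permutation test, adjusted p = 0.0173). The groups overlapped at 35 weeks, with a lowest of 7.52 in db/db Unx and a highest of 8.04 in db/m kidneys. The ratio of Pck1 to Pck2, each value plus 1, was 1.99-fold higher in db/db Unx kidneys at 26 weeks and 1.88-fold higher at 35 weeks.

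G6pc (ENSMUSG00000078650, chr11:101367561-101377903, plus strand) encodes the catalytic subunit of glucose-6-phosphatase, the last enzyme of glucose release. At 26 weeks it ran from 446 through a median of 779 to 1194 in db/db Unx kidneys, and was 490, 503, 437, 607 and 603 in db/m kidneys. In db/db Unx mice, 10 of 12 kidneys lay above every db/m kidney, and replicate 12, also the lowest for Pck1, lay within the db/m range. G6pc rose by 0.54 ± 0.19 on the log2 scale (limma, adjusted p = 0.0288). The call rested on single controls: without db/m replicate 1, 2 or 3 the adjusted p was 0.0642, 0.0591 or 0.0824.

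G6pc values at 35 weeks were 565, 960, 422, 475 and 501 in db/db Unx kidneys, against a lowest of 336, a median of 415 and a highest of 551 in db/m kidneys. Only replicates 1 and 2 of the db/db Unx kidneys exceeded all db/m kidneys. The log2 difference of 0.42 ± 0.22 did not pass (limma, adjusted p = 0.148, 95% interval -0.03 to 0.86). Without the 3 libraries that stood apart, which leaves those replicates, it was 0.82 (adjusted p = 0.0472).

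Fbp1 (ENSMUSG00000069805, chr13:62864753-62888282, minus strand), the kidney and liver form of fructose-1,6-bisphosphatase, showed the tightest increase. Its normalized value at 26 weeks ran from 2639 through 3022 (median) to 3366 in db/db Unx kidneys, and was 2254, 2446, 2344, 2215 and 2409 in db/m kidneys. No library of one group reached the other. The means were 3000 ± 211 and 2333 ± 98.5 (SD, n = 12 and 5), and Fbp1 rose by 0.36 ± 0.05 on the log2 scale (limma, adjusted p = 3.37e-07).

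At 35 weeks Fbp1 had values of 2781, 2838, 2437, 2347 and 2520 in db/db Unx kidneys, against 1963 (lowest), 2131 (median) and 2346 (highest) in db/m kidneys. The 2 groups again did not overlap, though db/db Unx replicate 5 and db/m replicate 2 lay side by side. The log2 difference was 0.26 ± 0.06 (limma, adjusted p = 0.000445), and 0.39 (adjusted p = 0.000137) without the 3 libraries that stood apart.

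Promoter windows of Pck1 and G6pc are shown because the pair, the first and last steps that are specific to gluconeogenesis from oxaloacetate, were both higher in db/db Unx kidneys at 26 weeks. Both are the 250 bases before the RefSeq start on GRCm38.p6, plus strand, at chr2:173152823-173153072 for Pck1 and chr11:101367466-101367715 for G6pc. Capitals mark matches, on either strand, to TGACG (one arm of the cyclic AMP response element TGACGTCA), TGTTTNC (a core of forkhead factor motifs) and GTTAAT (one arm of the HNF1 motif).
Pck1: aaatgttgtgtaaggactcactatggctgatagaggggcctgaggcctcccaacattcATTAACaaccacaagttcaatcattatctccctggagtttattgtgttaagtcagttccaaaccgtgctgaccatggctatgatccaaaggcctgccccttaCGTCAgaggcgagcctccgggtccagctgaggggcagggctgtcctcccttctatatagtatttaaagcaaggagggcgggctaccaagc
G6pc: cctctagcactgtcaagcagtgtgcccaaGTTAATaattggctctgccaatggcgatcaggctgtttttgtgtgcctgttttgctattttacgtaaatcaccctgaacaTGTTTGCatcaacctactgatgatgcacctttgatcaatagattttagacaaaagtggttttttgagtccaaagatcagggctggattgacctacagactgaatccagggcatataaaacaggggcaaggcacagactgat

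In the Pck1 window the arm TGACG began at -90 on the reverse strand (read as CGTCA), and GTTAAT began at -192 on the reverse strand, counted from the RefSeq start. In the G6pc window TGTTTNC began at -141 and GTTAAT at -221, both on the forward strand. Both windows held CAAAG (one arm of the HNF4 motif), which 53.9% of all 32851 mouse promoter windows of 300 bases hold on one strand or the other. Of the same windows, 20.8% hold TGACG, 20.5% hold TGTTTNC and 7.1% hold GTTAAT, while 1.79% hold the full TGACGTCA, which was found in no window of the enzymes. Windows were matched for 7 of the 8 enzymes. The Khk window held TGACG at -74 on the reverse strand, TGTTTNC at -229 on the reverse strand, CAAAG at -191 on the reverse strand, GTTAAT at -60 and CACGTG (an E-box, in 7.15% of all windows) at -71, overlapping the TGACG match, and Khk did not pass the test in either disease comparison. Such matches are of letters only and do not show that a factor binds.

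Pcx (ENSMUSG00000024892, chr19:4510472-4621752, plus strand), the entry enzyme from pyruvate, had means of 627 ± 67.8 in db/db Unx and 619 ± 51.9 in db/m kidneys at 26 weeks, and of 629 ± 31.1 and 676 ± 56.1 at 35 weeks (SD). Its libraries ran from 458 to 709 in db/db Unx and from 535 to 658 in db/m kidneys at 26 weeks. At 35 weeks they ran from 594 to 678 in db/db Unx and from 614 to 780 in db/m kidneys. The groups overlapped at both ages. The log2 difference was 0.01 (95% interval -0.12 to 0.15; limma, adjusted p = 0.892) at 26 weeks and -0.10 (-0.26 to 0.06; adjusted p = 0.352) at 35 weeks, so that at 26 weeks the whole interval lies below the size of the Fbp1 difference of 0.36.

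Khk (ENSMUSG00000029162, chr5:30921431-30931248, plus strand) phosphorylates fructose to fructose-1-phosphate. It ran from 694 through 794 (median) to 1079 in db/db Unx and was 815, 782, 740, 891 and 867 in db/m kidneys at 26 weeks. The groups overlapped, with a log2 difference of 0.02 (95% interval -0.17 to 0.22; limma, adjusted p = 0.872). At 35 weeks Khk was 873, 997, 664, 681 and 617 in db/db Unx kidneys and 614 (lowest), 703 (median) and 747 (highest) in db/m kidneys. Replicates 1 and 2 of the db/db Unx group stood above every db/m kidney, and the 3 libraries that stood apart lay within the db/m range. The log2 difference was 0.12 (-0.10 to 0.35; adjusted p = 0.438) with all libraries and 0.43 (adjusted p = 0.0107) without those 3.

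Sord (ENSMUSG00000027227, chr2:122234749-122265340, plus strand), which oxidizes sorbitol to fructose, did not pass the test at 26 weeks. Its normalized value ran from 2145 through 2295 (median) to 2547 in db/db Unx kidneys, and was 2599, 2454, 2219, 2386 and 2354 in db/m kidneys. The log2 difference was -0.05 (95% interval -0.13 to 0.03; limma, adjusted p = 0.338), but 0.12 under quantile normalization (adjusted p = 0.0215) and 0.47 against proximal tubule markers. At 35 weeks Sord was 2101, 1950, 1961, 1919 and 1941 in db/db Unx kidneys, against 2164 (lowest), 2316 (median) and 2528 (highest) in db/m kidneys. Every db/db Unx kidney lay below every db/m kidney at 35 weeks. Sord fell by 0.23 ± 0.05 on the log2 scale (limma, adjusted p = 0.000104), and by 0.20 without the 3 libraries that stood apart (limma, adjusted p = 0.0235). But set against proximal tubule markers, a scaling that shifts the median of all genes by 0.58, its difference was 0.33. Of its 50-base stretches, 31.3% also occur in the pseudogene Gm6652, which has no row in the table, and how the authors' counting treated such reads is not given in the sources used here.

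Akr1b3 (ENSMUSG00000001642, chr6:34302434-34317478, minus strand), the aldose reductase gene, had the largest decrease of the 8. At 26 weeks its normalized value was 31.2 at the lowest, 58.2 at the median and 74.4 at the highest in db/db Unx kidneys, and 157, 114, 125, 138 and 128 in db/m kidneys. The highest db/db Unx kidney lay below the lowest db/m kidney. The means were 56.3 ± 10.7 in db/db Unx and 132 ± 16.1 in db/m kidneys (SD), and Akr1b3 fell by 1.24 ± 0.21 on the log2 scale (limma, adjusted p = 4.65e-05), to 0.424 of the db/m level.

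At 35 weeks Akr1b3 was 55.6, 70.8, 52.9, 51.9 and 53.7 in db/db Unx kidneys, against 75.2 (lowest), 115 (median) and 322 (highest) in db/m kidneys. The groups did not overlap, although the highest db/db Unx and the lowest db/m kidney were close. Akr1b3 fell by 1.15 ± 0.24 on the log2 scale (limma, adjusted p = 0.000562). The call came near the threshold without the 3 libraries that stood apart (-1.01, limma, adjusted p = 0.0476). It also did so when set against proximal tubule markers (-0.59, limma, adjusted p = 0.0376). Of its 50-base stretches, 13.6% occur in other genes, mostly Gm38056, which the annotation does not class as a pseudogene, and the pseudogenes Gm6644, Gm6736 and Gm12138. None of these genes has a row in the table.

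Akr1b3 is known for high expression in the inner medulla, so its values were set beside 5 markers of inner medulla and thin limb, of which Slc14a2 is the first. The db/m kidney of 35 weeks with an Akr1b3 value of 322, replicate 4, also had the highest Slc14a2 (39.5, the urea transporter of the inner medulla) and the highest sum of the 5 markers (249) of all 28 libraries. Without it, the log2 difference of Akr1b3 at 35 weeks was -0.89, still called. The marker sums ran from 79.1 to 185 in db/db Unx and from 60.7 to 137 in db/m kidneys at 26 weeks, and from 81.5 to 195 in db/db Unx and from 84.7 to 249 in db/m kidneys at 35 weeks. Of the 5 markers, 2 were called higher and 1 lower at 26 weeks, and 1 higher and 1 lower at 35 weeks. The shares of all genes called were 34.9% and 32.3%. Slc14a2 was at 0 in 2 db/m kidneys of 26 weeks and 1 of 35 weeks and between 0.483 and 21.7 in db/db Unx kidneys. Every db/m kidney held more Akr1b3 than every db/db Unx kidney. The closest were a db/m kidney of 35 weeks at 75.2 and a db/db Unx kidney of 26 weeks at 74.4. The part of inner medulla content in the Akr1b3 difference was not tested. In whole kidney, fewer cells of a type and less RNA per cell cannot be told apart.

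**Figure D2:**
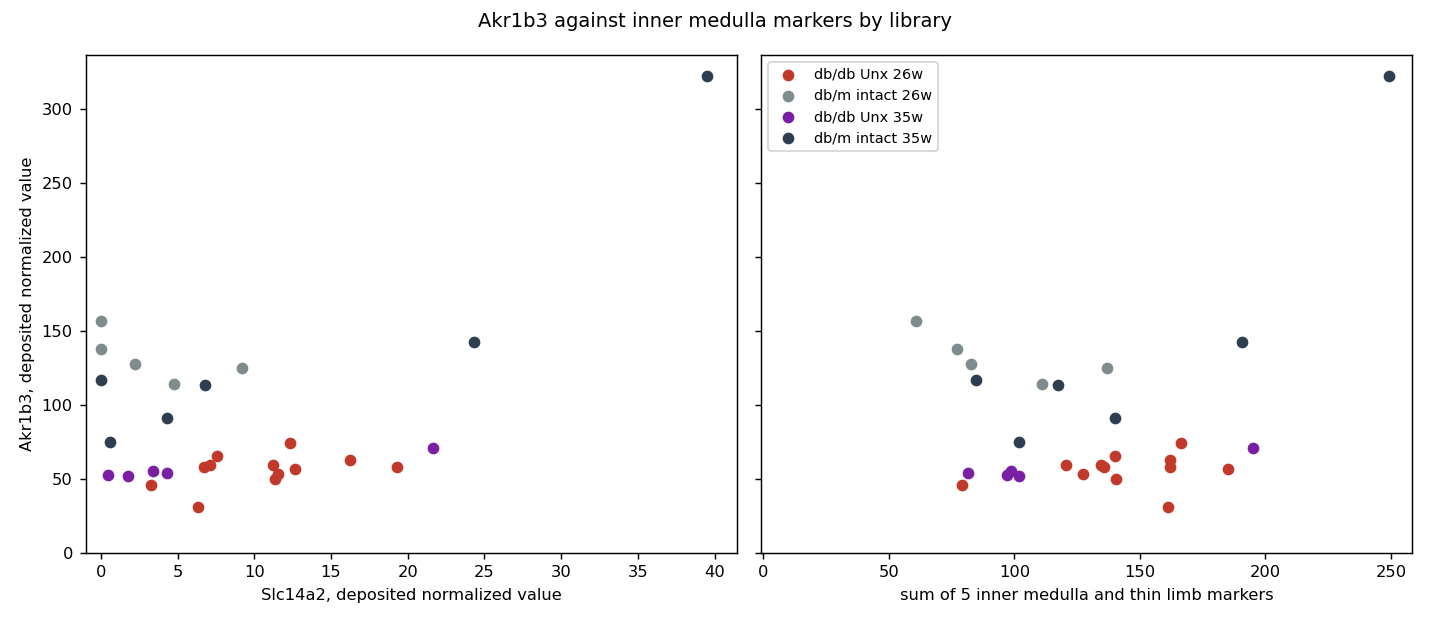
Akr1b3 (vertical axis, normalized value) against Slc14a2 (left) and the sum of 5 inner medulla and thin limb markers (right), 1 point per library. The db/db Unx points stay at or below 74.4 with Slc14a2 up to 21.7 and sums up to 195, and no db/db Unx point lies further right. Every db/m point lies at 75.2 or above, with the db/m library at 322 on the far right.

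The ratio of Sord to Akr1b3 transcripts within a library, the second over the first enzyme of the polyol pathway, was higher in db/db Unx kidneys. On the log2 scale, again of values plus 1, it averaged 5.36 ± 0.35 in db/db Unx and 4.18 ± 0.14 in db/m kidneys at 26 weeks (SD, n = 12 and 5; difference 1.19, two-sided exact permutation test, adjusted p = 0.000646). At 35 weeks it averaged 5.10 ± 0.19 in db/db Unx and 4.18 ± 0.76 in db/m kidneys (n = 5 and 6, difference 0.92, exact permutation test, adjusted p = 0.0115). The groups overlapped at 35 weeks, with 4.77 to 5.22 in db/db Unx and 2.74 to 4.95 in db/m kidneys. With single libraries left out, the difference at 35 weeks ran from 0.63 to 1.07 (exact permutation test, adjusted p of 0.0254 or less).

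**Figure D3:**
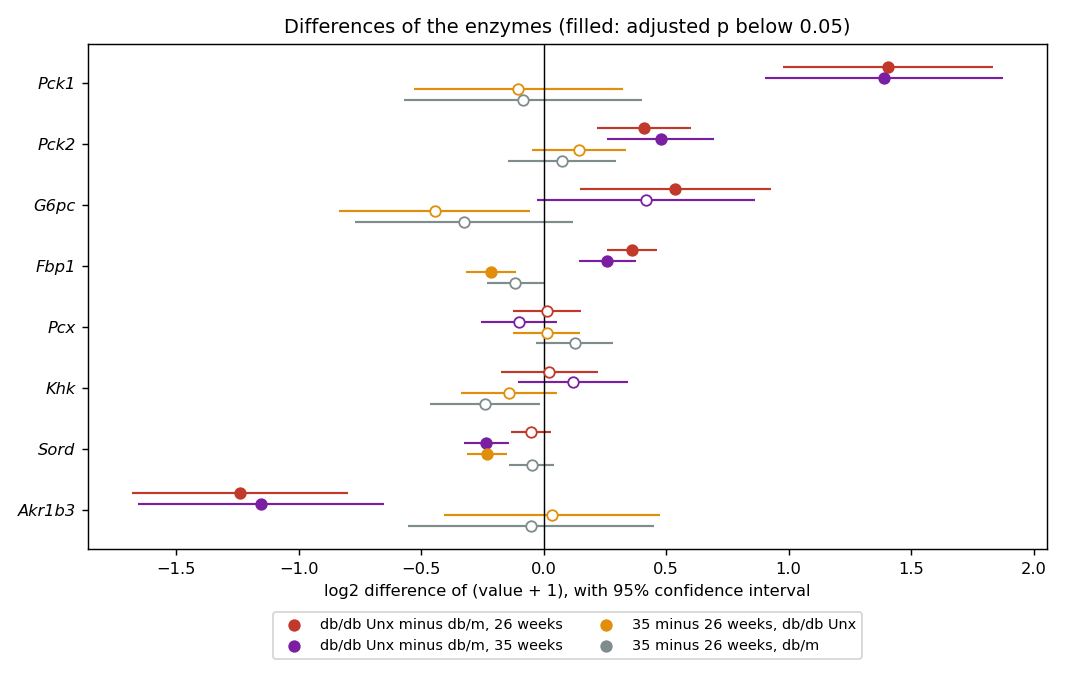
Log2 difference of each enzyme (horizontal axis, normalized value plus 1) with its 95% interval, for db/db Unx minus db/m at 26 and 35 weeks and for 35 minus 26 weeks in each strain. Filled points passed at an adjusted p below 0.05. Pck1, Pck2 and Fbp1 lie to the right of 0 and Akr1b3 to the left at both ages, and of the age differences those of Fbp1 and Sord in db/db Unx mice are filled; set against proximal tubule markers, Sord at 35 weeks lies to the right of 0.

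Between 35 and 26 weeks, 2 of the 8 enzymes fell in db/db Unx kidneys, Fbp1 and Sord, and the other 6 did not pass, where 11.3% of all genes were called (5.16% higher, 6.14% lower). Sord fell by 0.23 ± 0.04 on the log2 scale (limma, adjusted p = 0.000404), and its kidneys of 35 weeks, at 2101 or below, all lay below those of 26 weeks, at 2145 or above. Groups of the 2 ages did not overlap for 1.34% of all genes (0.482% higher, 0.86% lower). Fbp1 fell by 0.22 ± 0.05 (limma, adjusted p = 0.00483), with 3 of 5 kidneys of 35 weeks below every kidney of 26 weeks. Those were replicates 3, 5 and 6, the libraries that stood apart. Without them neither call held by limma (Fbp1 -0.09, adjusted p = 0.821, and Sord -0.19, adjusted p = 0.315). That fit keeps only 2 libraries of 35 weeks and called 8 genes in all, so a lost call says little. The Sord values of those 2 libraries, 2101 and 1950, still lay below every kidney of 26 weeks. Macrophage markers summed to 182, 154 and 151 in replicates 3, 5 and 6 of 35 weeks. Their sums were 98.2 and 66.5 in the other 2 of 35 weeks and 45.3 to 83.8 at 26 weeks. Of 5 macrophage markers, 4 were called higher at 35 weeks. Their part in the enzyme values was not tested.

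G6pc averaged 585 ± 216 at 35 weeks and 783 ± 193 at 26 weeks in db/db Unx kidneys (SD, n = 5 and 12), a log2 difference of -0.44 ± 0.19 that did not pass (limma, adjusted p = 0.134). It passed without replicate 2 of 35 weeks, the kidney at 960 (-0.64, adjusted p = 0.0203). The intervals of the age difference in db/db Unx kidneys were -0.53 to 0.32 for Pck1 and -0.40 to 0.48 for Akr1b3. The labels give no batch, so a batch that differed between ages cannot be told apart from age.

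In db/m kidneys none of the 8 enzymes was called between 35 and 26 weeks by limma, where 7.4% of all genes were (2.73% higher, 4.68% lower). The smallest p-values of the 8 were those of Khk and Fbp1. Khk averaged 694 ± 48.6 at 35 weeks and 819 ± 61.4 at 26 weeks (log2 difference -0.24 ± 0.11, limma, adjusted p = 0.203). Fbp1 averaged 2156 ± 150 and 2333 ± 98.5 (-0.12 ± 0.06, limma, adjusted p = 0.235). Of the db/m kidneys at 35 weeks, 5 of 6 were below every kidney of 26 weeks for Khk. The 2 ages overlapped for all 8 enzymes, and did not for 4.99% of all genes (1.5% higher, 3.49% lower).

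No enzyme had a disease difference that was called different between the ages (limma interaction; 0.548% of all genes were called), and 1, Sord, had an unadjusted p below 0.05. The Sord interaction was -0.18 ± 0.06 on the log2 scale (adjusted p = 0.158). For Pck1 it was -0.02 with a 95% interval of -0.66 to 0.63, and for Akr1b3 0.09 with an interval of -0.58 to 0.75.

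Compared per kilobase of exon, the enzymes covered about 3 orders of magnitude. In db/db Unx kidneys at 26 weeks the order of mean normalized value per kilobase was Fbp1 (1762 ± 124), Pck1 (1581 ± 341), Sord (985 ± 47.6), Khk (466 ± 64.5), G6pc (324 ± 80.1), Pcx (132 ± 14.3), Akr1b3 (6.71 ± 1.28) and Pck2 (2.15 ± 0.241). The ranges of Fbp1 and Pck1, of Pck1 and Sord, and of Khk and G6pc overlapped. In db/m kidneys at 26 weeks Fbp1 led with 1371 ± 57.9, ahead of Sord with 1021 ± 59.2 and Pck1 with 589 ± 91.5 per kilobase, and of these 3 no ranges overlapped.

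Pck1 thus stood above Sord per kilobase on average in db/db Unx kidneys, 1581 against 985 at 26 weeks and 1514 against 839 at 35 weeks, and below it in db/m kidneys, 589 against 1021 and 579 against 987. At 35 weeks Fbp1 and Pck1 averaged 1519 ± 127 and 1514 ± 522 per kilobase in db/db Unx kidneys, with ranges that overlapped. With the length of the longest principal transcript in place of all exons, Pck1 came ahead of Fbp1 in db/db Unx kidneys at both ages, and no other place in the order changed. The annotated exons of Akr1b3 and Pck2 add up to 8384 and 7806 bases, which makes their values per kilobase low, and per kilobase of principal transcript they were 40.6 ± 7.72 and 3.63 ± 0.406 in db/db Unx kidneys at 26 weeks.

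**Figure D4:**
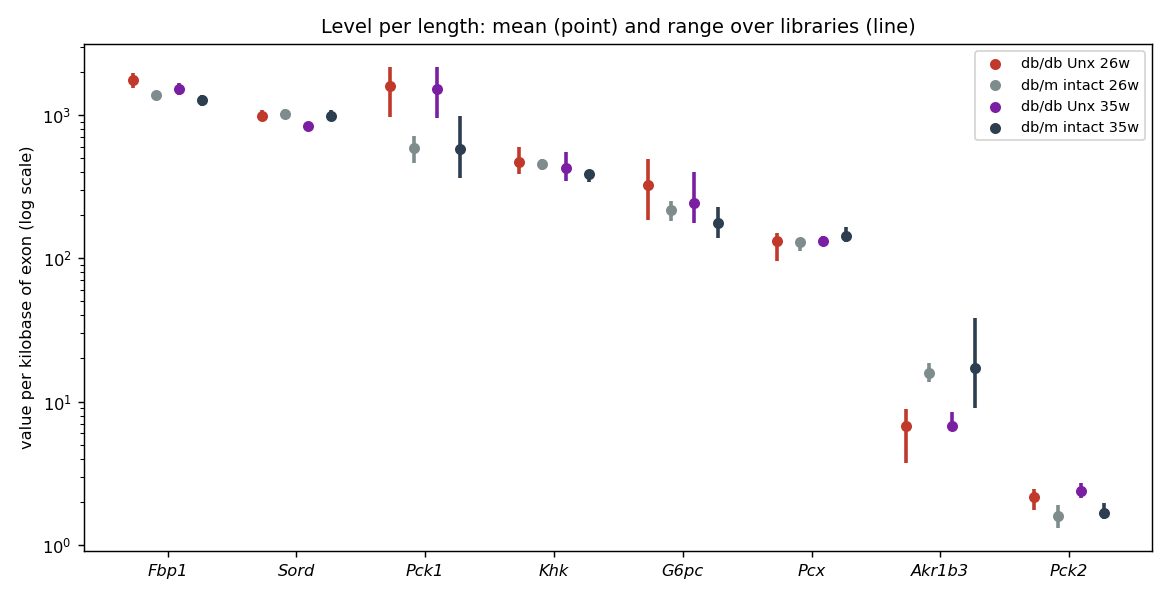
Normalized value per kilobase of merged exon (vertical axis, log scale) of each enzyme, as the mean (point) and the range over libraries (line) of each group. Pck1 averages 1581 in db/db Unx and 589 in db/m kidneys at 26 weeks, above and below Sord, and Pck2 lies lowest in every group.

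Among the 12 db/db Unx kidneys of 26 weeks, the 28 pairs of enzymes were correlated on the log2 scale. One pair passed, G6pc with Fbp1 (Pearson r = 0.82, permutation p = 0.00107, adjusted p = 0.0300; Spearman rho = 0.73, permutation p = 0.00982, adjusted p = 0.214). Without the 2 libraries farthest from the median of G6pc r was 0.56. Without replicate 12, which was lowest for Pck1, G6pc, Fbp1, Pcx, Khk and Sord, r was 0.72 (adjusted permutation p = 0.322). The call also ended without replicate 3, 6 or 7 (r of 0.75, 0.81 and 0.82; adjusted permutation p = 0.0991, 0.0713 and 0.0510), under quantile normalization (r = 0.63, adjusted permutation p = 0.115) and relative to proximal tubule markers (r = 0.77, adjusted permutation p = 0.0526). The next pairs were G6pc with Sord (r = 0.76, adjusted permutation p = 0.0570) and Pck1 with Pcx (r = 0.74, adjusted permutation p = 0.0570), and Pck1 with G6pc had r = 0.55 (adjusted permutation p = 0.157). The values of 1 library share its depth, whose part in these correlations was not tested.

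Genes whose log2 values moved most like each enzyme over the 28 libraries, after each group's mean was subtracted, are given as a description. For Pck1 they were Slc13a2 (r = 0.822), which carries citrate and other dicarboxylates, and Eif4ebp3 (0.797). For Khk they were Tkfc (0.881), which phosphorylates glyceraldehyde from fructose, Sdhb (0.839) and Ndufb10 (0.838). For Fbp1 they were Slc37a4 (0.722), which brings glucose-6-phosphate to glucose-6-phosphatase, and the fructose carrier Slc2a5 (0.716).

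For G6pc the nearest genes were Sdhd (0.733), Tkfc (0.722) and Gapdh (0.721). Those for Pcx were Slc13a2 (0.784), Palm (0.77) and Ahcyl1 (0.754). For Sord the list held Vwa8 (0.797), Tax1bp1 (0.739) and Slc31a1 (0.73). Akr1b3 had Tmem30b (0.772), Hspa1a (0.751) and Aldh1a3 (0.75), and Pck2 had F2r (0.725), Vps11 (0.717) and Med17 (0.687).

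Of 20 partner enzymes and carriers of gluconeogenesis, 11 rose and 5 fell in db/db Unx kidneys at 26 weeks and 9 rose and 4 fell at 35 weeks. Median log2 differences were 0.17 and 0.13. Among all genes tested, 17.2% rose and 17.7% fell at 26 weeks, and 15.9% rose and 16.4% fell at 35 weeks. Gpt, which makes pyruvate from alanine, averaged 90.8 ± 12.3 in db/db Unx and 36.9 ± 6.85 in db/m kidneys at 26 weeks (log2 difference 1.28 ± 0.11, limma, adjusted p = 2.11e-11). Eno1, an enolase shared by glycolysis and gluconeogenesis, averaged 2180 ± 181 in db/db Unx and 1180 ± 55.3 in db/m kidneys (0.88 ± 0.06, adjusted p = 1.02e-13). Fbp2, the muscle form of the bisphosphatase, rose by 0.86 at 26 weeks and 0.81 at 35 weeks from a low level (34.2 ± 6.09 in db/db Unx and 18.2 ± 2.5 in db/m kidneys at 26 weeks). Gk, the kinase that brings glycerol into the pathway, fell by 0.76 and 0.74 at the 2 ages, with 261 ± 42.3 in db/db Unx and 437 ± 31.8 in db/m kidneys at 26 weeks. Its groups did not overlap at either age, but set against proximal tubule markers its difference at 35 weeks was -0.17 (adjusted p = 0.103).

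Glutamine is a main source of carbon for glucose in the proximal tubule, and its breakdown yields ammonia. Of 9 genes of that route, 5 rose and 1 fell at 26 weeks and 5 rose at 35 weeks, with median log2 differences of 0.49 and 0.32. The shares of all genes called in either direction were 34.9% and 32.3%. Slc38a3, the glutamine carrier on the blood side of the tubule, averaged 175 ± 35.9 in db/db Unx and 20.4 ± 2.57 in db/m kidneys at 26 weeks (log2 difference 3.02 ± 0.15, limma, adjusted p = 1.29e-14), and rose by 2.72 ± 0.17 at 35 weeks. Glud1, the mitochondrial glutamate dehydrogenase, rose by 0.76 and 0.83, the bicarbonate carrier Slc4a4 by 0.49 and 0.32 and the amino acid carrier Slc7a7 by 0.68 and 0.32. The Slc7a7 call at 35 weeks ended without the 3 libraries that stood apart (0.17, adjusted p = 0.476) and, with adjusted p-values of 0.0582 to 0.0902, without db/m replicate 5 or db/db Unx replicate 3 or 6.

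Of 15 regulators of gluconeogenesis, 4 rose and 3 fell at 26 weeks and 5 rose and 3 fell at 35 weeks. Median log2 differences were 0.12 and 0.03. Calls in either direction covered 34.9% of all genes at 26 weeks and 32.3% at 35 weeks. Foxo3, a forkhead factor restrained by insulin signalling, rose by 0.85 at 26 weeks and 1.18 at 35 weeks. Ppargc1a, a coactivator of gluconeogenic and mitochondrial genes, rose by 0.37 and 0.51. Nr3c1, the glucocorticoid receptor, fell by 0.44 and 0.38, but set against proximal tubule markers its differences were 0.075 and 0.18, and without the 3 libraries that stood apart it was -0.17 at 35 weeks (adjusted p = 0.230). Cebpb, a factor known to act on the Pck1 promoter in liver, had a difference of 0.17 at 26 weeks (limma, adjusted p = 0.465) and rose by 1.08 at 35 weeks (adjusted p = 4.39e-05). Its interaction did not pass (0.91 ± 0.25, adjusted p = 0.0866).

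Of 7 genes of fructose handling, 5 rose and 1 fell at 26 weeks and 6 rose and 1 fell at 35 weeks, with median log2 differences of 0.54 and 0.51, while Khk itself did not pass. Slc2a5, the fructose carrier GLUT5, averaged 291 ± 47.0 in db/db Unx and 129 ± 25.9 in db/m kidneys at 26 weeks (log2 difference 1.17 ± 0.14, limma, adjusted p = 1.68e-07), and rose by 0.91 at 35 weeks. Slc5a9, a sodium-coupled carrier of mannose and fructose, rose by 1.12 and 0.84, and Slc2a2, the glucose and fructose carrier GLUT2, by 0.58 and 0.51. Glyctk, which phosphorylates glycerate formed from fructose, fell by 0.53 and 0.89, but set against proximal tubule markers its difference at 26 weeks was -0.015 (adjusted p = 0.865). Tkfc, which is named here after its values were seen, rose by 0.47 at 26 weeks and 0.48 at 35 weeks.

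Of 11 relatives of aldose reductase and genes of osmolyte handling, 4 rose and 2 fell at 26 weeks and 3 rose and 2 fell at 35 weeks. Median log2 differences were 0.10 and 0.06. Over all genes, the shares called were 34.9% and 32.3%. Slc6a6, the taurine carrier, rose by 0.47 and 0.51. The betaine carrier Slc6a12 rose by 2.57 at 26 weeks, with 4.11 to 16.0 in db/db Unx and 0 to 1.66 in db/m kidneys, and by 1.25 at 35 weeks. At 35 weeks its values were 2.84 to 13.9 in db/db Unx and 0.625 to 7.51 in db/m kidneys, 1 of 5 db/db Unx kidneys lay above every db/m kidney, and the call ended without db/db Unx replicate 2 (0.99, adjusted p = 0.0542). Gpcpd1, which breaks down the osmolyte glycerophosphocholine, fell by 0.45 at 26 weeks, a difference of 0.069 when set against proximal tubule markers, and by 0.91 at 35 weeks, -0.34 against those markers (adjusted p = 0.0624). Its call at 26 weeks ended without db/m replicate 3 (-0.38, adjusted p = 0.0603). Akr1b8, a relative of Akr1b3, rose by 0.71 and 1.30 at values of 5.16 or less. Nfat5, the factor that responds to high osmolarity and is named here after its values were seen, did not pass at either age (0.16, adjusted p = 0.256, and 0.06, adjusted p = 0.763; limma).

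**Figure D5:**
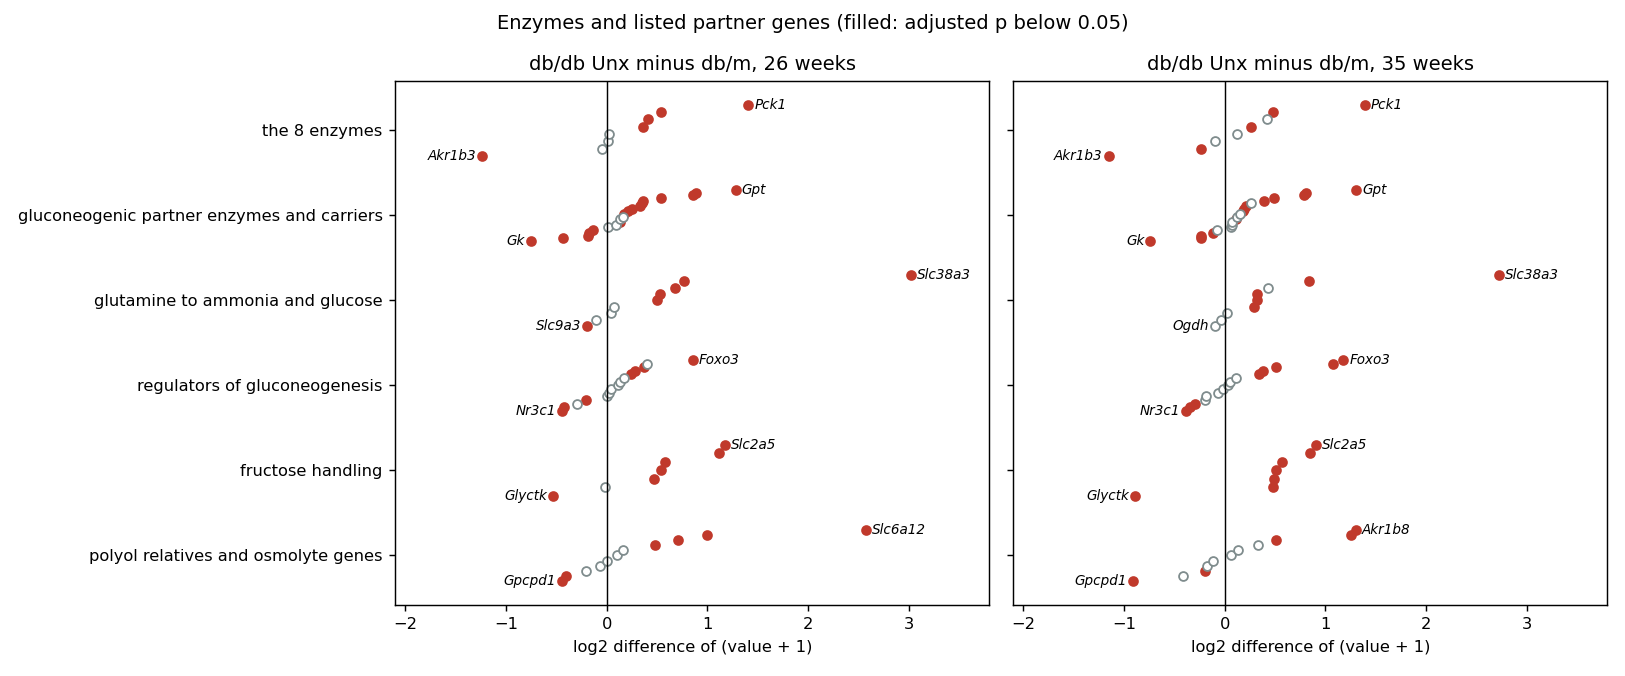
Log2 differences (horizontal axis, normalized value plus 1) of the 8 enzymes and of 5 lists of related genes, 1 point per gene, for db/db Unx minus db/m at 26 weeks (left) and 35 weeks (right). Filled points passed at an adjusted p below 0.05; the highest and lowest gene of each list is named, and of those Nr3c1, and Gpcpd1 at 26 weeks, lie to the right of 0 when set against proximal tubule markers.

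Proximal tubule markers moved the other way from Pck1, Fbp1 and Slc38a3. Of 10 markers of all its segments, 10 fell at 26 weeks and 8 at 35 weeks, where 17.7% and 16.4% of all genes fell. Their median log2 differences were -0.41 and -0.60. Their summed normalized value was 15951 to 18509 in db/db Unx and 24465 to 28422 in db/m kidneys at 26 weeks, and 14496 to 16084 in db/db Unx and 23184 to 26825 in db/m kidneys at 35 weeks. Lrp2, the first of them, ran from 624 to 767 in db/db Unx and from 960 to 1101 in db/m kidneys at 26 weeks. Markers of the late segment were lowest, with 4 of 5 lower and 1 higher at both ages (medians -2.30 and -3.09), and of 5 markers of the early segments 3 were higher at 26 weeks and 2 at 35 weeks. Their part in the enzyme values was not tested. Set against the 10 markers, all 8 enzymes were called at both ages, but so were 11460 genes at 26 weeks and 11415 at 35 weeks, since that scaling shifts the median of all genes by 0.54 and 0.58. On that scale the differences at 26 weeks were 1.92 for Pck1, 1.06 for G6pc, 0.93 for Pck2, 0.88 for Fbp1, 0.53 for Pcx, 0.54 for Khk, 0.47 for Sord and -0.72 for Akr1b3.

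Of 5 markers of the distal convoluted and connecting tubule, 4 were called higher in db/db Unx kidneys at both ages. Of 5 principal cell markers, 3 were. Of 4 thick limb markers, 2 were higher and 1 lower at 26 weeks, and 1 higher and 2 lower at 35 weeks. Of 4 intercalated cell markers, 1 was higher and 1 lower at 26 weeks, and 2 were lower at 35 weeks. The shares of all genes called were 34.9% and 32.3%. Distal tubule sums at 26 weeks were 1181 to 1577 in db/db Unx and 784 to 895 in db/m kidneys. Principal cell sums were 953 to 1388 in db/db Unx and 542 to 825 in db/m kidneys. At 35 weeks principal cell sums overlapped, with 977 to 1382 in db/db Unx and 666 to 1228 in db/m kidneys. Thick limb sums were then 1695 to 2204 in db/db Unx and 2091 to 3330 in db/m kidneys. Macrophage markers summed to 45.3 to 83.8 in db/db Unx and 78.4 to 112 in db/m kidneys at 26 weeks and to 66.5 to 182 in db/db Unx and 71.9 to 99.5 in db/m kidneys at 35 weeks. Of the 5 adipocyte markers 2 had a row in the table, with sums of 41.1 to 92.5 in db/db Unx and 42.1 to 79.5 in db/m kidneys over both ages, nearly all from Fabp4. The only adrenal marker with a row, Star, stayed at or below 3.02 in db/db Unx and 3.86 in db/m kidneys. Their part in the enzyme values was not tested.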

How the data were processed

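Gene expression was measured in 28 kidney libraries. Per the labels, TRIzol and RNeasy extraction was followed by Nextera XT library preparation. The submitters' processing notes name DRAGEN and GRCm38 (mm10), but the version, annotation and scaling are not given there. The authors deposited normalized signal values, 1 for each gene in each library, with column sums of 896873 to 1018934. Of the low values of a library, 86.4% to 89% were whole multiples of 1 step (tolerance 0.1), too few for a count model. Symbols, coordinates and exon lengths came from GENCODE M21 (14834 of 14845 identifiers matched), promoters from RefSeq.

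The 13495 genes that reached 1 in 5 or more libraries were analysed as log2(value + 1), a scale that understates changes of low genes. A mean per group was fitted over all 28 libraries with limma 3.58.1 in R 4.3.3 (trend, robust), with Benjamini-Hochberg adjustment over all 13495 genes and calls at an adjusted p below 0.05. Ratios of enzyme pairs were compared by two-sided exact permutation tests adjusted over 4, and correlations by 100000 permutations adjusted over 28 pairs. In simulated data with 13495 genes, log2 changes of 0.5, 1 and 2 were recovered in 57.4%, 90.6% and 100% of changed genes for the comparison at 26 weeks, and in 45.9%, 87.5% and 100% for that at 35 weeks. Only 61, 64 and 75 genes were changed by these sizes, a far smaller share than was called in the real data. The simulated noise was normal and independent between genes, so these rates do not measure recovery in the real data.

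All 8 enzymes, up to 4 called genes per pathway list with the smallest adjusted p, and the 3 genes nearest to each enzyme are named, except for some that are not reported here. The enzymes and the gene lists were chosen with earlier results of these data known. Hnf4a, Slc4a4 and Slc7a7 each stand in 2 lists. Alternatives were the pseudocount (0.1 and 5), the filter, quantile and median-of-ratios scaling, scaling to proximal tubule markers, fits without trend or with only the compared groups, a replicate block and leaving out libraries.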

Additional observations from a re-analysis of the deposited data

Results flagged for a closer look

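Among the groups of 5 or 6 libraries, 84 groups of 28 named genes were searched for a single library far from the rest. The search found 5, where chance gives about 1 in 20. The 12 db/db Unx libraries of 26 weeks were not searched. The G6pc value of db/db Unx replicate 2 at 35 weeks was 959.9, and the next of its group was 564.8. The same library was highest of its group for Akr1b3 (70.76, next 55.58) and for Gpcpd1 (20.17, next 11.81). It also had the highest Slc14a2 of the db/db Unx kidneys, at 21.7. For Sord, db/db Unx replicate 1 at 35 weeks stood at 2101, and the next was 1961. For Akr1b3, db/m replicate 4 at 35 weeks stood at 322.4, and the next was 142.8; its inner medulla markers are given with the Akr1b3 results.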

How the results depend on the processing

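The pseudocount, the low-value filters, median-of-ratios scaling, the fit without trend and the replicate block changed no call of the 8 enzymes, and leaving out 1 library changed 4 of 1120 (G6pc, given in the report). Same-numbered db/db Unx and db/m libraries of the same age did not deviate together (r of -0.0612 to 0.084). Same-numbered libraries of different ages were not compared. With the replicate block the genes called were 483 for age in db/db Unx (main 1526) and 29 for the interaction (main 74), and the Gpcpd1 call at 26 weeks was lost (-0.36, adjusted p = 0.149). The interaction gave 41 without trend. Over libraries left out singly, genes called ran from 633 to 1748 for age in db/db Unx, 578 to 1140 for age in db/m and 7 to 249 for the interaction, and correlated pairs from 0 to 3. Without the 3 libraries that stood apart, an alternative chosen after seeing the data, they were 2407 for the disease comparison at 35 weeks (main 4357), 8 for age in db/db Unx and 0 for the interaction, and 0 enzymes were called for age in db/db Unx. Quantile normalization turned Sord at 26 weeks to 0.12 (adjusted p = 0.0215), left 1 enzyme called for age in db/db Unx (Sord) and gave 2 correlated pairs, Pck1 with Pcx and Fbp1 with Sord, in place of G6pc with Fbp1. It also called G6pc (0.57) and Khk (0.30) at 35 weeks and Pcx (0.19) at 26 weeks, all higher. Relative to proximal tubule markers, 11460 and 11415 genes and 8 and 8 enzymes were called at 26 and 35 weeks, 1 enzyme for age in db/db Unx and 0 pairs correlated. On that scale Sord was 0.47 and 0.33, Nr3c1 0.075 and 0.18 at the 2 ages, Gpcpd1 0.069 at 26 weeks and Pcx 0.47 at 35 weeks. With only the 2 db/m groups in the fit, 1 enzyme was called for age in db/m (Khk, -0.24, adjusted p = 0.0234), and with only the 2 groups of 35 weeks the calls of Slc7a7 and Slc6a12 ended (adjusted p = 0.0841 and 0.0627). The cause of these changes was not tested. The 1 added before taking log2 understates changes of low values, such as those of Akr1b8 and Slc6a12.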
